A study of Mus musculus with 9 samples.

Results

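The genes described here mark T cells, natural killer (NK) cells and B cells, or carry out their functions, and their signals were followed across 9 mouse oral tumors. The list holds 36 genes, defined by their names with no threshold on a measured value. Of these, 35 were measured among 18193 genes in all, each by the probe set with the highest mean log2 signal. Lck is not analysed here, because no probe set carried its symbol alone.

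T cells recognise antigen through a receptor whose signal is carried into the cell by the CD3 chains, with CD4 or CD8 as co-receptors. NK cells and cytotoxic T cells kill target cells with granzymes and perforin, and B cells recognise antigen through surface immunoglobulin coupled to CD79A and CD79B. In stratified epithelium and its tumors these cells are usually scattered among many epithelial and stromal cells. Each value is from whole tumor RNA, so fewer cells of a type and less RNA per cell cannot be told apart.

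According to the title of the series the tumors arose with activated Ras and altered p53. There were 3 groups of 3 tumors from mice aged 1 year. The p53-/- group had lost p53, the p53R172H/- group carried the missense allele p53R172H and no wild-type allele, and the p53R172H/+ group carried p53R172H over a wild-type allele. The labels prefix all 3 genotypes with K-, which they do not spell out, and the sources used here do not name the promoter or cell type behind the Ras activation. Whether each tumor came from an animal of its own is not labelled either. The p-values therefore cover only the variation among these arrays, part of which may be technical.

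The 9 arrays were alike in brightness, with median signals of 109 to 123 in the deposited units, and their number limits the precision. Epithelial markers were bright on every array, and 9 of 9 measured lay above the background defined below. Of the cell type lists, that of skeletal muscle varied most between tumors. The mean log2 signal of 15 skeletal muscle genes was 11.08 and 9.94 in p53R172H/- tumors 2 and 3 and between 6.30 and 8.52 in the rest. No gene passed an adjusted p of 0.05 with limma in any of the 4 comparisons, so differences are given as values throughout.

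Most of the lymphocyte genes gave signals no higher than those of genes that oral tissue is not expected to use. As that background, 39 olfactory receptor genes were taken, whose mean signals had a median of 67.8 and a 90th percentile of 119.8. Of the 35 members, 14 (40%) lay above the 90th percentile, against 64.8% of all genes. The 14 were Cd4, Cd8a, Zap70, Cd2, Cd5, Icos, Il7r, Ncr1, Eomes, Cd79b, Ighm, Cd22, Pax5 and Ccr6. The other 21 are called near background. Signals of different probe sets are not on a common scale, so this split is a guide to how much each value can show and not an order of expression. With the mean of all probe sets of a gene, or with its most variable probe set, 11 members lay above background. For the tests, genes under the median signal of all probe sets (113) were left out. That left 15 members, the 14 above and Cxcr5, and left out 20.

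**Figure D1:**
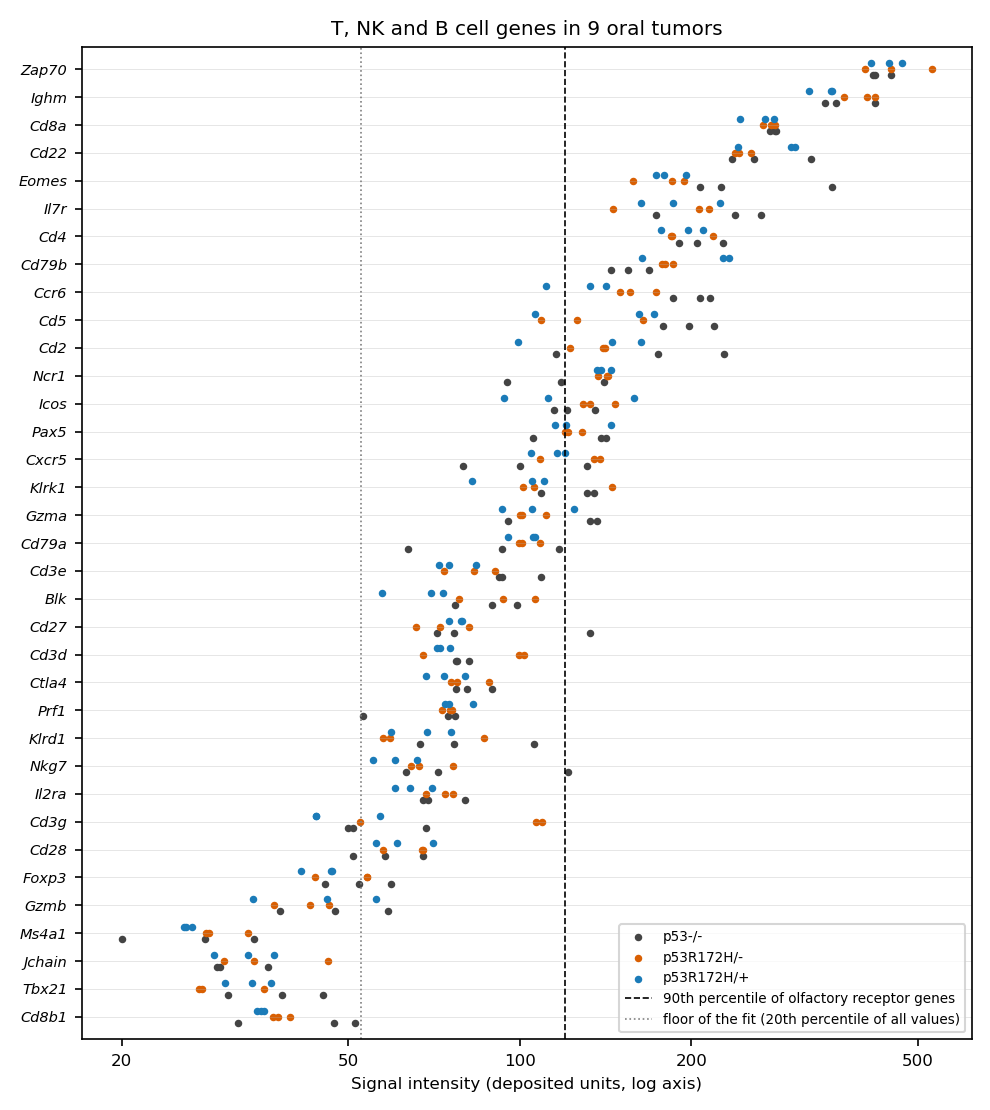
Signal intensity (deposited units, log axis) of the 35 measured lymphocyte genes, 1 point per tumor and colored by genotype. The dashed line is the 90th percentile of the olfactory receptor genes (119.8), and the dotted line is the floor of 52.6 used in the fits. The 9 points of most genes lie close together, and Ms4a1, Jchain, Tbx21 and Cd8b1 lie below the floor in all 9 tumors.

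In 29 of 35 the highest signal was under 2 times the lowest. The median SD of log2 signal over the 9 tumors was 0.225 for the 15 members tested and 0.179 for all 12167 genes tested.

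The CD3 chains, the signalling subunits that every T cell receptor needs, were near background. Cd3d signals were 81.5, 77.5 and 77.4 in the p53-/- tumors, 67.5, 99.4 and 101 in the p53R172H/- tumors and 75.4, 72.3 and 71.7 in the p53R172H/+ tumors. Cd3g signals were 51, 49.9 and 68.3 in the p53-/- tumors, 52.3, 107 and 109 in the p53R172H/- tumors and 43.9, 43.9 and 56.9 in the p53R172H/+ tumors. For both genes the same pair of tumors, p53R172H/- tumors 2 and 3, was highest, and p53R172H/- tumor 1 lay with or below the other groups, so the p53R172H/- values overlapped with both. For Cd3d the p53R172H/+ values all lay just below those of p53-/-. Cd3e signals were 109, 93.2 and 91.8 in the p53-/- tumors, 73.5, 90.2 and 83 in the p53R172H/- tumors and 72, 83.6 and 75 in the p53R172H/+ tumors. Cd3e did not share that pattern, and its lowest p53-/- tumor lay just above all 6 p53R172H tumors. None of the 3 CD3 genes was bright enough to be tested, and 5 of the 9 Cd3g values lay under the floor.

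Skeletal muscle RNA was also highest in p53R172H/- tumors 2 and 3. All 15 muscle genes on the list lay above background. Their summed signal ran from 3629 to 6911 in the p53-/- tumors, from 1492 to 46480 in the p53R172H/- tumors and from 1225 to 7351 in the p53R172H/+ tumors. Averaged over 15 macrophage and monocyte genes, log2 signal was also highest there, at 8.97 and 9.20 against 8.005 to 8.92 in the other tumors. Over 12 pan-leukocyte genes it was highest in p53-/- tumor 1 (8.49), with 8.41 and 8.46 in the pair. The dendritic and Langerhans cell list also peaked in p53-/- tumor 1 (8.26), and the neutrophil list in p53R172H/+ tumor 2 (9.56). The part of muscle and macrophage cells in the Cd3d and Cd3g signals was not tested.

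The 3 CD3 genes lie together on mouse chromosome 9. Cd3g and Cd3d are transcribed away from each other from start sites 1355 bases apart, and the start of Cd3e is 27825 bases from that of Cd3d. The 250 bases before each start are printed because Cd3d and Cd3g shared their highest tumors and Cd3e did not. They were taken from RefSeq's sequence of the assembly GRCm38.p6 and run 5′ to 3′ on the gene's strand. Cd3d lies on the plus strand (chr9:44981536-44981785), Cd3e on the minus strand (chr9:45009612-45009861) and Cd3g on the minus strand (chr9:44980432-44980681). Capitals mark GGAA or its reverse complement TTCC, the core letters of binding sites of ETS factors, a family that lymphocytes use.
Cd3d: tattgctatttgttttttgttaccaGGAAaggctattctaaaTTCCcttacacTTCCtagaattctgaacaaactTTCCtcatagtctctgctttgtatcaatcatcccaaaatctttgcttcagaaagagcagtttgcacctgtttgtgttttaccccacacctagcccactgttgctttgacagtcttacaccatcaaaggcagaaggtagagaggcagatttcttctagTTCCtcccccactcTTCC
Cd3e: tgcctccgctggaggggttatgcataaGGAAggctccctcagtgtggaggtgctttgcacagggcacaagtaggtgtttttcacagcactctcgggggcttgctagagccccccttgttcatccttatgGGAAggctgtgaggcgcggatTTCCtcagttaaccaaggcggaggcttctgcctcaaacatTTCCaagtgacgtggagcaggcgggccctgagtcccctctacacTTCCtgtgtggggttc
Cd3g: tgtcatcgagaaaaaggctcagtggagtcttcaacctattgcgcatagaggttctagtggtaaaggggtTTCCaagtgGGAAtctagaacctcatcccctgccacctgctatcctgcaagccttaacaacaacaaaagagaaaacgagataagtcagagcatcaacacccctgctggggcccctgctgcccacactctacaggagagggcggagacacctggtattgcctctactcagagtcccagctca

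In these windows, searched on both strands, GGAA occurred 6 times for Cd3d, 5 times for Cd3e and 2 times for Cd3g. The median of 32851 mouse promoter windows of the same length was 3, and 93.4% held at least 1 match. The E-box letters CANNTG occurred 1 time for Cd3d, 1 time for Cd3e and 3 times for Cd3g, and 66.2% of all windows held them. AGATAA, which GATA3 and its relatives bind, occurred 1 time for Cd3g and 0 times for Cd3d and Cd3e, against 9.99% of all windows. Matches were counted whether or not they overlapped those of another motif. TGTGGT, a RUNX motif (14% of windows), and TATAAA, the TATA box (12.4%), had 0 matches in the 3 windows. A match is a description of letters and not of a bound site.

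The co-receptor genes Cd4 and Cd8a lay above background, and on the probe sets used they hardly differed between tumors. Cd4 signals were 227, 205 and 190.1 in the p53-/- tumors, 184, 219 and 185 in the p53R172H/- tumors and 197, 177 and 209.8 in the p53R172H/+ tumors. The 3 genotypes overlapped. A second Cd4 probe set of like brightness had its highest signal in p53-/- tumor 2 (284) and its lowest in p53R172H/+ tumor 2 (139). Its log2 difference between p53R172H/- and p53-/- tumors was -0.42, against -0.08 for the probe set used. Cd8a signals were 275, 281 and 280.2 in the p53-/- tumors, 276, 267 and 279.9 in the p53R172H/- tumors and 244, 279 and 269 in the p53R172H/+ tumors. Apart from the lower p53R172H/+ tumor 1 the Cd8a values lay between 266.7 and 281, and the genotypes overlapped. This Cd8a probe set is of a class (suffix x) whose probes may bind related transcripts, and 2 of the other 4 Cd8a probe sets had mean signals of 53.8 and 52.6, at or near the floor. Of the other 4, 3 were lower on average in both p53R172H groups than in p53-/- tumors and 0 were higher. The largest log2 differences were -0.33 (p53R172H/-) and -0.40 (p53R172H/+), on a probe set with a mean signal of 101. Cd8b1, the partner chain of CD8A on most cytotoxic T cells, was at 32 to 51.4, under the floor in all 9 tumors.

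The kinase and adhesion genes of T cells were above background. Zap70 encodes the kinase that binds the phosphorylated CD3 chains. Its signals were 449, 421 and 416 in the p53-/- tumors, 448, 528 and 404 in the p53R172H/- tumors and 413, 444 and 468 in the p53R172H/+ tumors. The highest and the lowest were both p53R172H/- tumors, so the genotypes overlapped. A second Zap70 probe set differed by -0.47 (log2) between p53R172H/- and p53-/- tumors, where the one used differed by 0.09. Cd2 encodes an adhesion receptor of T and NK cells. Its signals were 115, 228 and 174 in the p53-/- tumors, 122, 139.9 and 141 in the p53R172H/- tumors and 145, 99.1 and 163 in the p53R172H/+ tumors. The p53-/- tumors alone spanned 115 to 228, nearly the whole range of the gene. Cd5, a receptor that dampens T cell receptor signalling and is also found on some B cells, gave 178, 219 and 198 in the p53-/- tumors, 164, 126 and 109 in the p53R172H/- tumors and 171.95, 162 and 106 in the p53R172H/+ tumors. All 3 p53-/- tumors lay above all 6 p53R172H tumors for Cd5.

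Of the 7 genes of co-stimulation, regulatory T cells and the IL-7 receptor, 2 lay above background. Il7r, the receptor chain through which naive and memory T cells receive survival signals, gave 265, 173 and 238 in the p53-/- tumors, 146, 206 and 215 in the p53R172H/- tumors and 186, 163 and 224 in the p53R172H/+ tumors. Its lowest value was that of p53R172H/- tumor 1, and the genotypes overlapped. On this probe set the log2 difference from p53-/- was -0.25 in p53R172H/- and -0.23 in p53R172H/+ tumors. A second Il7r probe set, near background with a mean of 70.5, ran the other way, by 0.18 and 0.05. Icos, a co-stimulatory receptor of activated T cells, gave 121, 115 and 136 in the p53-/- tumors, 147, 129 and 133 in the p53R172H/- tumors and 112, 93.8 and 158 in the p53R172H/+ tumors. Here p53R172H/+ tumors 2 and 3 were the lowest and the highest of the 9. The other 2 Icos probe sets, both near background, were highest in p53R172H/- tumors 2 and 3 or in 1 of them and p53-/- tumor 3. Foxp3, which defines regulatory T cells, ranged from 41.3 to 59.5, with 6 of 9 values under the floor. Ctla4, an inhibitory receptor of activated and regulatory T cells, ranged from 68.3 to 89.3. Il2ra, a chain of the IL-2 receptor, ranged from 60.5 to 80.2 and Cd28, the main co-stimulatory receptor, from 51 to 70.2. Cd27, a receptor of the TNF receptor family, was at 65.6 to 133, and its single value above 100 was that of p53-/- tumor 2. Regulatory T cell genes were near background in every tumor.

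The 4 cytotoxic effector genes were near background, and none was tested. Gzma, which encodes a granule protease, had signals of 133, 137 and 95.4 in the p53-/- tumors, 111, 101 and 100.12 in the p53R172H/- tumors and 92.8, 105 and 125 in the p53R172H/+ tumors. Gzmb, the other main granzyme gene, ranged from 33.9 to 58.8 with 7 of 9 values under the floor. Prf1, which encodes the pore-forming protein perforin, ranged from 53.1 to 82.8. For Prf1 8 of the 9 tumors lay between 73.0 and 82.8, and p53-/- tumor 2 was at 53.1. On the second Prf1 probe set, also near background, p53-/- tumor 2 was the highest of the 9 (86.9). Nkg7, a granule membrane gene of NK and cytotoxic T cells, ranged from 55.3 to 122, and p53-/- tumor 1, the highest, stood apart from the next value of 76.4.

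Among the NK receptor and T-box genes, Ncr1 and Eomes lay above background. Ncr1, which encodes the activating receptor NKp46, gave 94.8, 118 and 141 in the p53-/- tumors, 143, 142 and 137 in the p53R172H/- tumors and 138, 144 and 137 in the p53R172H/+ tumors. The 6 p53R172H tumors lay within 137 to 144, whereas the p53-/- tumors ran from 94.8 to 140.5, inside and below that range. Eomes, a T-box factor of NK and memory CD8 T cells, gave 225, 354 and 207 in the p53-/- tumors, 194, 185 and 158 in the p53R172H/- tumors and 173, 196 and 179 in the p53R172H/+ tumors. All 3 p53-/- tumors were above the other 6, and p53-/- tumor 2 was far above the other p53-/- tumors. A second Eomes probe set, near background with a mean of 79.3, ran the other way, by 0.35 (log2) in p53R172H/- and 0.08 in p53R172H/+ tumors relative to p53-/-. Klrk1, the gene of the activating receptor NKG2D, ranged from 82.3 to 145, and Klrd1, which encodes CD94, from 57.5 to 106. Tbx21, the T-box factor T-bet, was at 27.3 to 45.1, under the floor in all 9 tumors.

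B cell genes split in the same way, with 4 of 8 above background on the probe sets used. Cd79b, a signalling chain of the B cell receptor, gave 155, 168 and 145 in the p53-/- tumors, 177, 186 and 180.0 in the p53R172H/- tumors and 164, 233 and 227 in the p53R172H/+ tumors. The p53R172H/- tumors all lay above the p53-/- tumors, and p53R172H/+ tumors 2 and 3 were the highest of all. Its partner Cd79a, near background, gave 63.5, 117 and 93.1 in the p53-/- tumors, 99.8, 109 and 101 in the p53R172H/- tumors and 105, 106 and 95.4 in the p53R172H/+ tumors. The highest and the lowest Cd79a values were both p53-/- tumors, so its genotypes overlapped. On average Cd79a was higher than in p53-/- tumors, by 0.22 (log2) in p53R172H/- and 0.21 in p53R172H/+ tumors. Ighm, the immunoglobulin mu heavy chain gene, gave 421, 343 and 359 in the p53-/- tumors, 370.1, 406 and 419 in the p53R172H/- tumors and 352, 352 and 322 in the p53R172H/+ tumors. The p53R172H/- tumors lay above all p53R172H/+ tumors for Ighm, and the p53-/- tumors overlapped with both. Ighm had 11 probe sets, and the one used is again of the x class. The other 10 had mean signals of 57.5 to 155. Of the other 10, 7 were lower and 3 higher on average in p53R172H/- than in p53R172H/+ tumors, with log2 differences of -0.23 to 0.07. Cd22, an inhibitory co-receptor of B cells, gave 257, 324 and 235 in the p53-/- tumors, 239, 242 and 254 in the p53R172H/- tumors and 242, 304 and 299 in the p53R172H/+ tumors. Pax5, the factor that holds B cell identity, gave 142, 139 and 105 in the p53-/- tumors, 129, 121 and 119.9 in the p53R172H/- tumors and 121, 145 and 115 in the p53R172H/+ tumors. For Cd22 and Pax5 the genotypes overlapped. The other Cd22 probe set had a mean signal of 54.1, near the floor. The other Pax5 probe set had a mean of 119.0, just under the background threshold. Blk, a kinase of the B cell receptor, gave 98.9, 89.2 and 76.8 in the p53-/- tumors, 78.1, 106 and 93.4 in the p53R172H/- tumors and 73.3, 57.2 and 69.9 in the p53R172H/+ tumors. The p53R172H/+ tumors had the 3 lowest Blk values of the 9, all near background. Ms4a1, which encodes the B cell surface protein CD20, was at 20 to 34.1, and Jchain, which joins secreted IgA and IgM, was at 29 to 46. Both were under the floor in all 9 tumors.

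The chemokine receptor gene Ccr6 was the only one of the 35 members whose 3 genotypes were fully separated. The share of all genes separated in this way was not counted, so this does not set Ccr6 apart from genes at large. CCR6 binds CCL20 and is carried by Th17 cells, B cells and some dendritic cells. Its signals were 216, 207 and 186 in the p53-/- tumors, 173, 156 and 149.7 in the p53R172H/- tumors and 133, 111 and 142 in the p53R172H/+ tumors. The p53-/- tumors were highest and the p53R172H/+ tumors lowest, with no overlap. Their means ± SD were, in that order of genotypes, 203 ± 15.4, 159.7 ± 12.3, 128 ± 15.6 (n = 3 each). Cxcr5, the receptor that guides B cells and follicular helper T cells to CXCL13, gave 79.4, 100.02 and 131 in the p53-/- tumors, 109, 135 and 138 in the p53R172H/- tumors and 116, 120.0 and 104 in the p53R172H/+ tumors. The Cxcr5 values of the genotypes overlapped.

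**Figure D2:**
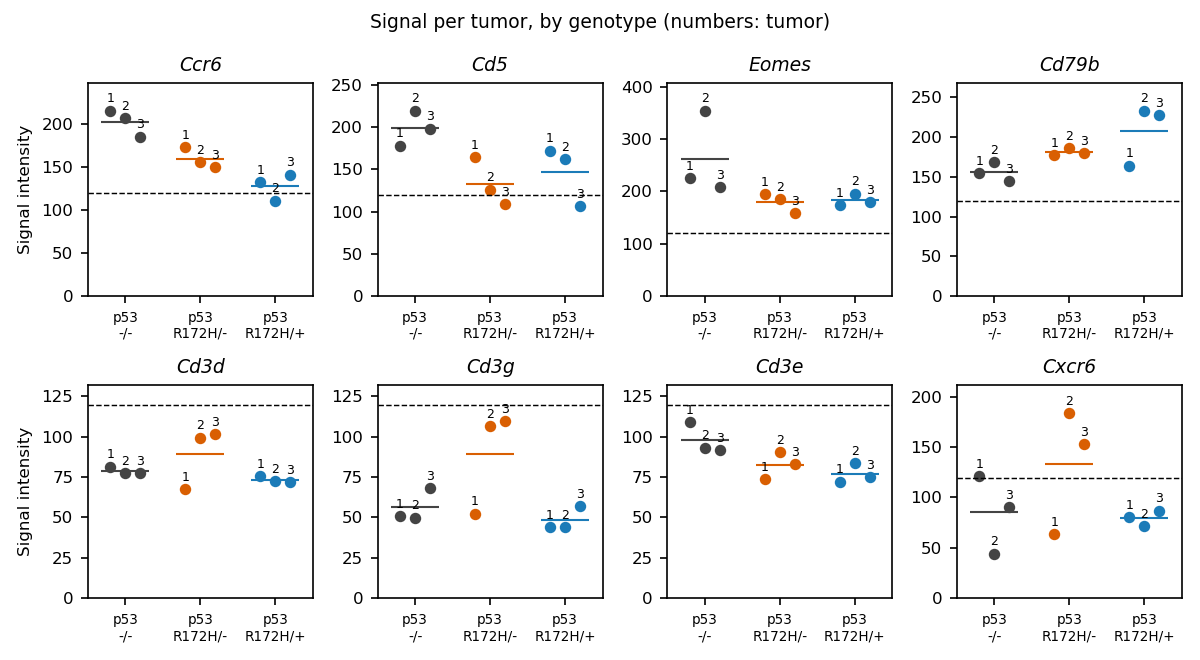
Signal intensity per tumor (numbers 1 to 3) and genotype mean (line) for 7 members and for Cxcr6, with the axis from 0 and the 90th percentile of the olfactory receptor genes dashed. Ccr6, Cd5 and Eomes are higher in all 3 p53-/- tumors than in the others, while Cd3d, Cd3g and Cxcr6 are highest in p53R172H/- tumors 2 and 3.

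The p53R172H/- and p53-/- tumors both lack wild-type p53, and their comparison asks what the mutant protein adds. Of the 15 members tested, Cd5, Ccr6 and Eomes were lower in all 3 p53R172H/- tumors and Cd79b was higher in all 3. With limma the log2 difference of Cd5 was -0.59 ± 0.21 (SE), unadjusted p = 0.0194, adjusted p = 0.265. The corresponding limma values were -0.34 ± 0.12 (SE), unadjusted p = 0.0212, adjusted p = 0.27 for Ccr6. For Eomes limma gave -0.51 ± 0.19 (SE), unadjusted p = 0.0243, adjusted p = 0.277. With the mean of both Eomes probe sets the difference was -0.0789 (limma unadjusted p = 0.448). Cd79b differed by 0.22 ± 0.14 (SE), unadjusted p = 0.161, adjusted p = 0.46, in the same limma fit. None of the 15 was called at an adjusted p of 0.05, as was 0% of all genes, where the smallest adjusted p was 0.202. At an unadjusted p under 0.05 there were 3 members lower and 0 higher, against 9.16% of all genes tested lower and 6.44% higher. Groups did not overlap for 3 members lower and 1 higher, against 13.8% and 9.11% of all genes. Counts this small do not set the 15 members apart from all genes. On average 6 members were higher and 9 lower (40% higher, and 53.3% with each array centred on its median), where 43.8% of all genes were higher and 56.2% lower. Their median log2 difference was -0.05, against -0.03 over all genes.

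The next comparison, of p53R172H/+ with p53-/- tumors, sets a labelled genotype of 1 missense and 1 wild-type allele against loss of p53. Whether the p53R172H/+ tumors kept the wild-type allele is not labelled. Ccr6 had the largest difference among the members, 1.58-fold lower in the p53R172H/+ tumors, and no value overlapped. Its log2 difference with limma was -0.66 ± 0.12 (SE), unadjusted p = 0.000434, adjusted p = 0.359. Cd79b was at 0.40 ± 0.14 (SE), unadjusted p = 0.0201, adjusted p = 0.42 by limma, with overlapping values. Eomes differed by -0.48 ± 0.19 (SE), unadjusted p = 0.0321, adjusted p = 0.452, again by limma and without overlap. Cd5 was at -0.46 ± 0.21 (SE), unadjusted p = 0.0546, adjusted p = 0.493 with limma and did not overlap. The mean of both Eomes probe sets differed by -0.20 (limma unadjusted p = 0.0779). No member was called, as was 0% of all genes, and the smallest adjusted p of any gene was 0.159. At an unadjusted p under 0.05 there were 2 members lower and 1 higher, against 5.6% of all genes lower and 4.75% higher. The groups did not overlap for 3 members lower and 0 higher, where 8.86% and 7.08% of all genes had that. Of the 15, 5 were higher and 10 lower (33.3% higher, and 46.7% with centred arrays), where 43.9% and 56.1% of all genes were. The median of the members was -0.08, against -0.03 over all genes. The 2 comparisons so far share the p53-/- tumors and are not independent of each other.

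The 2 groups with the p53R172H allele, which differ in the second allele of their labelled genotype, were also compared. Ccr6 was 1.25-fold higher in the p53R172H/- than in the p53R172H/+ tumors, without overlap. With limma its log2 difference was 0.32 ± 0.12 (SE), unadjusted p = 0.0299, adjusted p = 0.949. Ighm was higher in all 3 p53R172H/- tumors too, by 0.22 ± 0.11 (SE), unadjusted p = 0.0683, adjusted p = 0.949 with limma, on the probe set used. Cd5 and Eomes were at -0.13 ± 0.21 (SE) and -0.03 ± 0.19 (SE). No member was called, as was 0% of all genes (smallest adjusted p of any gene 0.452). There was 1 member higher and 0 lower at an unadjusted p under 0.05, against 2% and 2.96% of all genes. Groups did not overlap for 2 members higher and 0 lower, against 5.27% and 6.62%. The median of the members was 0.01 and that of all genes -0.01, with 9 members higher and 6 lower where 48% and 52% of all genes were.

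With both p53R172H groups together set against p53-/-, the same tumors as above are used, so the values restate those differences over more tumors. Ccr6 was 1.42-fold lower in the 6 p53R172H tumors, at -0.50 ± 0.11 (SE), unadjusted p = 0.00108, adjusted p = 0.187 with limma. Eomes was at -0.50 ± 0.17 (SE), unadjusted p = 0.0144, adjusted p = 0.248 with limma, and the mean of both its probe sets at -0.14. Cd5 differed by -0.53 ± 0.18 (SE), unadjusted p = 0.0171, adjusted p = 0.254 in that limma fit. All 6 p53R172H tumors were below all 3 p53-/- tumors for these 3 genes, whereas 3.94% of all genes had that and 3.34% had the reverse. Cd79b was at 0.31 ± 0.12 (SE), unadjusted p = 0.0334, adjusted p = 0.288 with limma, and its groups overlapped. No member and 0% of all genes were called, with a smallest adjusted p of 0.152. There were 3 members lower and 1 higher at an unadjusted p under 0.05, against 9.09% and 6.84% of all genes. On average 5 members were higher and 10 lower (33.3% higher, and 60% with centred arrays), where 43.5% and 56.5% of all genes were. Their median was -0.04 against -0.03 over all genes.

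**Figure D3:**
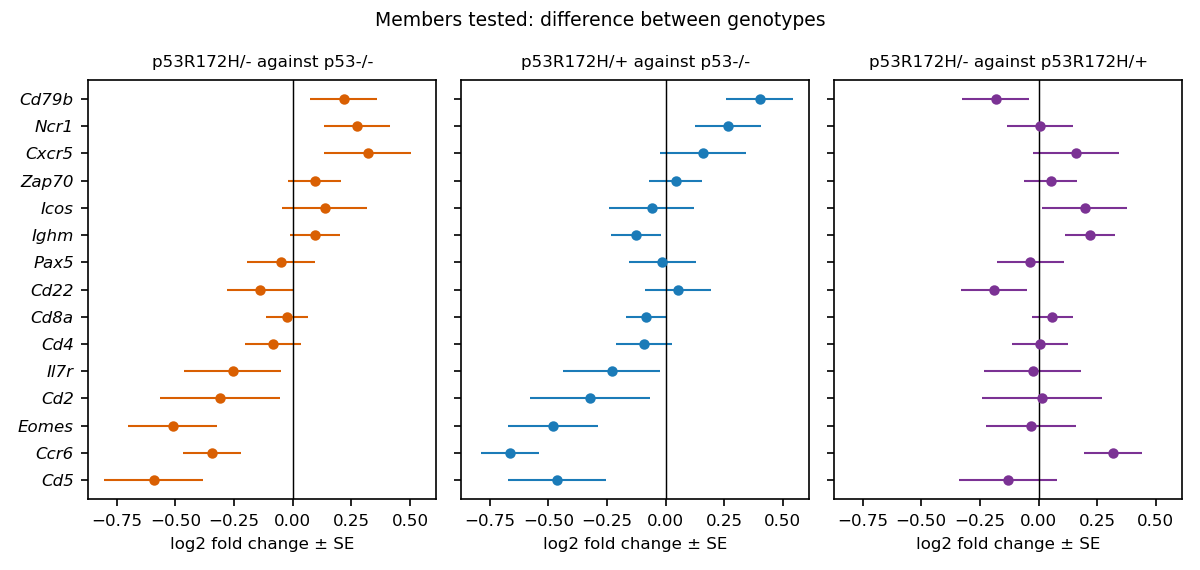
Log2 fold change ± SE from limma of the 15 members tested in the 3 comparisons of single groups, 3 tumors per group. Ccr6 lies farthest from 0 in the middle panel (-0.66), and no member in any panel passed an adjusted p of 0.05.

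Single tumors carried much of some of these differences. Without p53-/- tumor 2 the Eomes difference was -0.28 (p53R172H/-), -0.24 (p53R172H/+) and -0.26 (both groups) relative to p53-/-. Without p53R172H/+ tumor 3 the Cd5 difference of p53R172H/+ and p53-/- tumors was -0.25. Ccr6 kept its direction with each tumor left out, between -0.41 and -0.30 for p53R172H/-, between -0.74 and -0.56 for p53R172H/+ and between -0.57 and -0.45 for both groups. Without p53R172H/- tumors 2 and 3, the muscle-rich pair, 1 p53R172H/- tumor is left, which limma assumes to vary like the other groups. Its Ccr6 signal differed from the p53-/- tumors by -0.22 and its Cd5 signal by -0.27 (log2).

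The background genes too were brighter on average in the p53-/- tumors. The geometric mean signal of the 39 olfactory receptor genes was 66.5 to 72.3 in the p53-/- tumors, 64.0 to 66.0 in the p53R172H/- tumors and 61.6 to 66.7 in the p53R172H/+ tumors. Of the 35 members, 22 (62.9%) had their highest signal in a p53-/- tumor, 13 in tumor 1, 9 in tumor 2 and 0 in tumor 3. The same held for 25 of 39 olfactory receptor genes (64.1%) and for 61.2% of the other 6340 genes near background. Among the other genes above background it was 43.7%. The share of the 35 members was close to that of genes near background. It was 13 of 21 (61.9%) for members near background. For the 14 members above background it was 9 (64.3%), against the 43.7% of other genes above background. With each array centred on its median the count was 15 of 35 members, and with quantile normalization 17. The shares of the other genes were not counted under these scalings, so these counts cannot be set against the shares above.

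**Figure D4:**
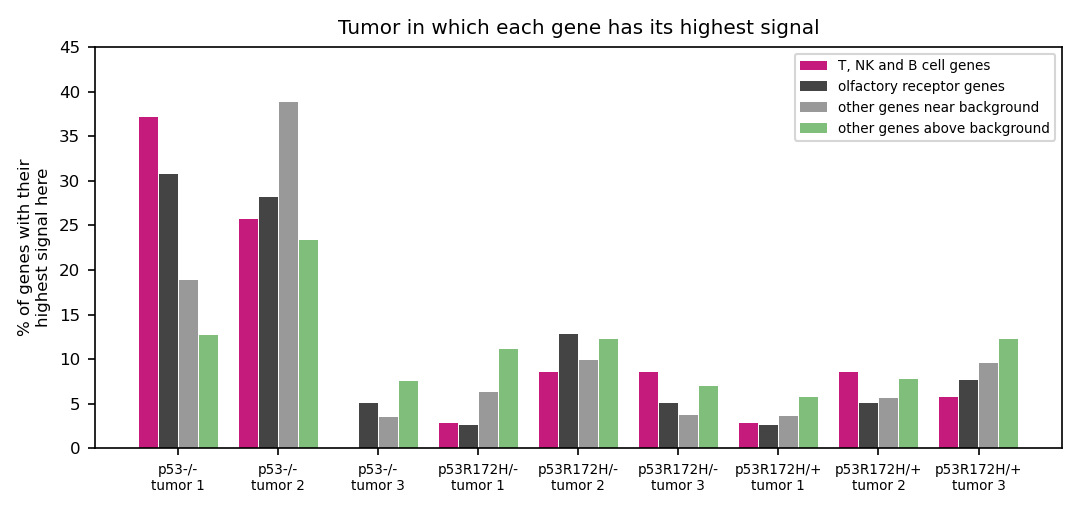
Share of genes (%) whose highest signal of the 9 lies in each tumor, for the 35 members, 39 olfactory receptor genes, other genes near background and other genes above it. The members and the background genes peak in p53-/- tumors 1 and 2, which together hold all 22 members that were highest in a p53-/- tumor.

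An alternative added after the data were seen took the mean log2 signal of the olfactory receptor genes as a covariate. In that fit Ccr6 was at -0.57 in p53R172H/+ against p53-/- tumors (log2; limma unadjusted p = 0.0092). For p53R172H/- against p53-/- tumors it was at -0.25 (limma unadjusted p = 0.17). Eomes was at -0.29 and -0.25 in these comparisons with the covariate, and Cd5 at -0.77 and -0.65. The covariate was itself higher on average in the p53-/- tumors, so these fits cannot separate array background from genotype. The part of array background in the Ccr6, Eomes and Cd5 differences was not tested. CCR6 is also carried by some dendritic cells. Over 8 tested dendritic and Langerhans cell genes the median log2 difference from p53-/- was -0.14 in p53R172H/- and -0.34 in p53R172H/+ tumors. In these comparisons 7 and 6 of the 8 were lower, and 1 and 2 higher. H2-Eb1, an MHC class II gene, differed most (-0.53 and -0.81). Zbtb46 ran the other way in p53R172H/+ tumors, at 154, 129 and 152 against 118, 103 and 144 in p53-/- tumors. For Flt3 these 2 groups overlapped. Of 13 dendritic and Langerhans cell genes listed, 12 were measured and 8 lay above background. Their summed signal was 7319 to 9400 (p53-/-), 5480 to 8261 (p53R172H/-) and 4609 to 7490 (p53R172H/+). The part of these cells in the Ccr6 signal was not tested.

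Other lymphocyte genes were read from lists that do not contain the members. Genes on these lists may also be used by other cells of the tumor, and Thy1 was on a fibroblast list too. Which cells gave the signals was not tested. None of the genes on the lymphocyte lists was called in any of the 4 comparisons with limma. Of 18 measured genes of T cell receptor signalling, 10 lay above background, and 13 were tested. Against p53-/- tumors, 10 of 13 were lower on average in p53R172H/- and 10 in p53R172H/+ tumors, where 56.2% and 56.1% of all genes were. At an unadjusted p under 0.05 these were 2 and 0, against 9.16% and 5.6% of all genes lower. Trat1, an adaptor of the T cell receptor complex, gave 146, 249 and 181 in the p53-/- tumors, 70.9, 103 and 101 in the p53R172H/- tumors and 96.3, 122 and 272 in the p53R172H/+ tumors. The p53R172H/- tumors lay below all p53-/- tumors, by -1.05 ± 0.36 (SE), unadjusted p = 0.0171, adjusted p = 0.263 with limma, while p53R172H/+ tumor 3 was the highest of all. Themis, a regulator of T cell receptor signals in the thymus, differed by -0.38 ± 0.13 (SE), unadjusted p = 0.0172, adjusted p = 0.263 in the same limma comparison.

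Of 18 measured genes of the NK and cytotoxic list, 2 lay above background and 3 were tested. In all 4 comparisons 0 of the 3 had an unadjusted p under 0.05. Of the gamma-delta and epidermal T cell list, 2 of 12 genes were measured and only Sox13 was tested. Of 13 measured checkpoint genes 7 were above background and tested. Cd274, which encodes the ligand PD-L1, gave 154, 133 and 135 in the p53-/- tumors, 146, 143 and 193 in the p53R172H/- tumors and 189, 201 and 156 in the p53R172H/+ tumors. The p53R172H/+ tumors lay above the p53-/- tumors, by 0.37 ± 0.15 (SE), unadjusted p = 0.0368, adjusted p = 0.46 with limma. Tnfrsf18, the gene of the co-stimulatory receptor GITR, was lower in p53R172H/+ than in p53-/- tumors, by -0.32 ± 0.14 (SE), unadjusted p = 0.0448, adjusted p = 0.469 with limma. Tnfrsf9 was at -0.28 ± 0.12 (SE), unadjusted p = 0.0463, adjusted p = 0.472 by limma, with overlapping values. In that comparison 1 of the 7 was higher and 2 were lower at an unadjusted p under 0.05, against 4.75% and 5.6% of all genes. Groups did not overlap for 1 higher and 1 lower, against 7.08% and 8.86% of all genes.

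B cell receptor and plasma cell genes beyond the members, 19 measured, had 8 above background and 10 tested. Cd72, an inhibitory co-receptor of B cells, gave 366, 206 and 212 in the p53-/- tumors, 189, 164 and 170.4 in the p53R172H/- tumors and 144, 182 and 196 in the p53R172H/+ tumors. All 6 p53R172H tumors were below the p53-/- tumors, with p53-/- tumor 1 far above the rest, at -0.54 ± 0.19 (SE), unadjusted p = 0.0184, adjusted p = 0.256 by limma over both groups. Prdm1, a factor of plasma cells that epithelial cells also use, was higher in all 6, at 0.25 ± 0.08 (SE), unadjusted p = 0.0106, adjusted p = 0.237 with limma. In that comparison 1 gene of the 10 was higher and 2 were lower at an unadjusted p under 0.05, against 6.84% and 9.09% of all genes.

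Lymphocyte chemokines and their receptors varied more between tumors than the members did. Cxcl13, the ligand of CXCR5 that draws B cells, gave 509, 30.1 and 70 in the p53-/- tumors, 65.8, 896 and 1008 in the p53R172H/- tumors and 53.3, 64 and 148 in the p53R172H/+ tumors. It was highest in p53R172H/- tumors 2 and 3 and in p53-/- tumor 1, with the others far lower, so its groups overlapped. Cxcl12, a stromal chemokine for CXCR4-bearing lymphocytes that was chosen after its values were seen, gave 684, 173 and 921 in the p53-/- tumors, 169.6, 1664 and 2080 in the p53R172H/- tumors and 750, 194 and 1189.8 in the p53R172H/+ tumors. Cxcr6, a receptor of tissue T cells also chosen after its values were seen, gave 121, 44.3 and 90.4 in the p53-/- tumors, 63.5, 184 and 153 in the p53R172H/- tumors and 80.4, 71.5 and 86.9 in the p53R172H/+ tumors. Cxcl12 and Cxcr6 were highest in p53R172H/- tumors 2 and 3, where Cd3d, Cd3g and muscle RNA were also highest. Because they were chosen after their values were seen, this overlap carries no weight. The mean Cxcr6 signal, 92.8, was under the background threshold. Mean log2 signal of the T cell receptor complex and co-receptor members was highest there too (6.902 and 6.865). That of the T cell kinases and surface proteins was lowest in p53R172H/- tumor 3 (7.52) and highest in p53-/- tumor 2 (8.11). The T cell receptor signalling list peaked in p53-/- tumor 2. Across the list of 16 measured genes, 7 were above background and 8 were tested. In p53R172H/- against p53-/- tumors 6 of the 8 were higher, with a median of 0.22, and 1 had an unadjusted p under 0.05 (Cxcl16, the ligand of CXCR6, 0.37 ± 0.16 (SE), unadjusted p = 0.0486, adjusted p = 0.32 with limma).

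Markers of leukocytes as a whole were well measured, unlike most lymphocyte genes. All 12 pan-leukocyte genes and 13 of 15 macrophage genes lay above background. Over the 9 tumors the geometric mean signal of the pan-leukocyte list varied 1.60-fold, that of the macrophage list 2.30-fold and that of the 35 members 1.13-fold. The skeletal muscle list varied 27.5-fold. The member value averages 21 genes near background with members that differ in opposite directions. By role the members varied least for the B cell genes (1.14-fold) and most for the T cell kinases and surface proteins. These 2 lists are not on an equal footing. The B cell value includes Ms4a1 and Jchain, set to the floor in all 9 tumors, and the other list has 3 measured genes. The B cell gene Blk alone varied 1.86-fold.

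**Figure D5:**
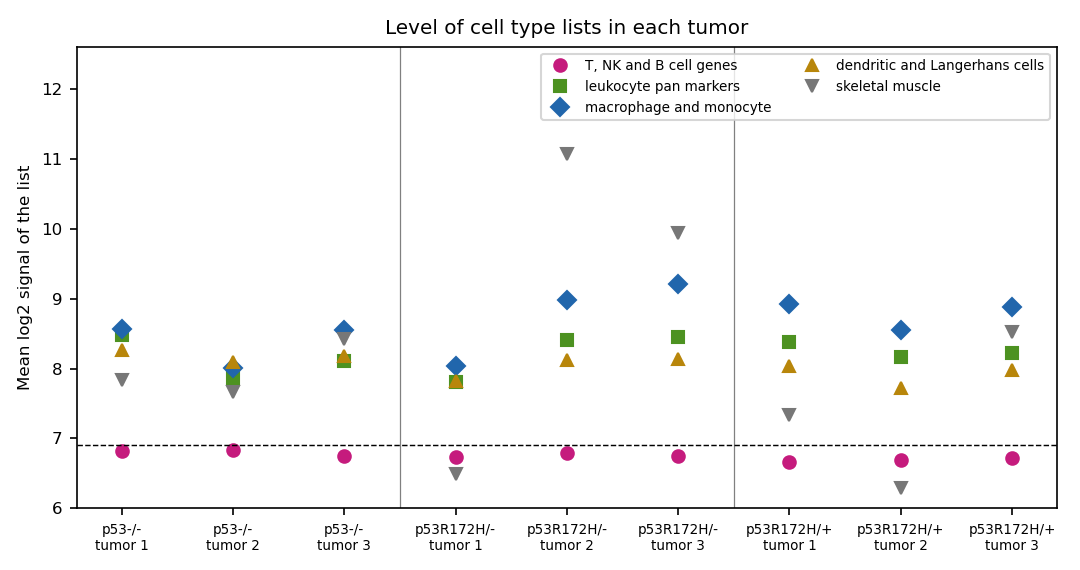
Mean log2 signal of the members and of 4 cell type lists in each tumor, with the 90th percentile of the olfactory receptor genes dashed. The members stay between 6.66 and 6.83 in all 9 tumors, while the muscle list runs from 6.30 to 11.08.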

How the data were processed

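Total RNA of 9 oral tumors was hybridised as biotinylated cRNA to Affymetrix arrays, according to the labels. Each probe set has 1 deposited linear intensity per array, which the authors made with MAS5, per the submitters' processing notes. The sources used here give neither the MAS5 version nor the scaling. Of 45101 probe sets, 64 were controls, 34945 had 1 gene symbol in the platform annotation, 932 several and 9160 none. Probe sets with several or none were not used.

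Signals under the 20th percentile (52.6) were set to it before taking log2. The brightest probe set stood for each gene, and 12167 of 18193 genes over the median probe set were tested. All 35 measured members matched the RefSeq gene table (GRCm38.p6) by gene ID. Group means over all 9 arrays were fitted together with limma 3.58.1 (R 4.3.3; lmFit, eBayes with trend), two-sided, Benjamini-Hochberg adjusted over 12167 genes. The 4 comparisons share arrays. The fit was tested on simulated data. No pair of arrays held the same values: the root mean square log2 difference was 0.239 to 0.487.

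All members are named, with values per tumor for those above background. Of other lists, up to 3 genes with the smallest p are named. The members and lists were chosen with earlier results of these data known. The targeted gene is not reported here. Alternatives were other normalizations, floors, filters, probe set rules, variance models, covariates, a block and leaving out arrays.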

Additional observations from a re-analysis of the deposited data

Results flagged for a closer look

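Among the members, 3 had 1 value standing apart from the other 5 of the 6 p53R172H tumors. Chance gives such a gap in about 1 of 20 groups. Cd8a was at 243.7 in p53R172H/+ tumor 1 and at 266.7 to 279.9 in the other 5. Prf1 was at 82.8 in p53R172H/+ tumor 3 and at 73.0 to 75.8 in the others. Ms4a1 was at 33.4 in p53R172H/- tumor 3 and at 25.7 to 28.4 in the others, all under the floor of the fits. Groups of 3 were not examined in this way.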

How the results depend on the processing

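With limma no member passed an adjusted p of 0.05 under any of 13 other settings, with any of the 9 arrays left out, or under 2 more settings added after the data were seen. The adjusted p of Ccr6 ranged from 0.207 to 1 for p53R172H/+ against p53-/- tumors and from 0.104 to 1 for both groups against p53-/-. The median log2 difference of the members depended on the setting. With arrays centred on the median it was 0.0198 (p53R172H/- against p53-/-), -0.0155 (p53R172H/+ against p53-/-) and 0.0253 (both groups against p53-/-). With the mean of all probe sets it was -0.105, -0.13 and -0.11, and with the most variable probe set -0.28, -0.25 and -0.28. For p53R172H/- against p53-/- it was -0.11 with the filter at the 60th percentile and 0.057 with the olfactory covariate, which gave 0.00494 for both groups. With arrays left out it ranged from -0.14 to -0.00503, from -0.15 to -0.0257, from -0.0234 to 0.0734 (p53R172H/- against p53R172H/+) and from -0.14 to -0.0195 (both groups).

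Leaving out p53R172H/- tumors 2 and 3 leaves 1 tumor in that group, assumed to vary like the others, so lower counts there say little about dependence on the pair. Members at an unadjusted p under 0.05 then numbered 0 for p53R172H/- against p53-/-, and 1 with the olfactory covariate. For p53R172H/- against p53R172H/+ they numbered 3 without a filter, 0 with the muscle covariate and 0 without that pair of tumors. For both groups without the pair there was 1. With arrays left out the counts ran from 0 to 5, 1 to 4, 0 to 2 and 3 to 5 in the 4 comparisons. Among all genes, the muscle covariate gave 22 calls (p53R172H/- against p53-/-) and 4 (both groups), and leaving out the pair gave 3 in the first. Without p53R172H/+ tumor 3 there was 1 call for both groups, and 0 to 1 over all arrays left out. The cause was not tested.

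Between p53R172H/- and p53R172H/+ tumors the small differences of Cd5 and Eomes reversed. Eomes was at 0.12 with the mean of probe sets, 0.0628 with the muscle covariate and 0.0907 without the pair. Cd5 was at 0.11 with the muscle covariate and 0.19 without the pair. With arrays left out Cd5 ranged from -0.35 to 0.002291 and Eomes from -0.0933 to 0.0557. The labels do not say whether the tumor numbers pair the samples. Deviations of same-numbered arrays correlated at -0.497 to 0.237 over 9 pairs, and those of differently numbered arrays at -0.471 to 0.524. With 3 arrays a group these values cannot settle the question. With the replicate block 0 members were called, and 3, 4, 1 and 4 had an unadjusted p under 0.05 in the 4 comparisons.

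For 21 of 35 members signals were near background, so differences in them may not be detectable on these arrays.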

Other observations

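Genes of antigen presentation and of macrophages are given as values, since none was called at an adjusted p of 0.05. H2-Eb1, an MHC class II chain, gave 1156, 956 and 919.9 in the p53-/- tumors, 535, 729 and 872 in the p53R172H/- tumors and 680.3, 443 and 623 in the p53R172H/+ tumors. All 6 p53R172H tumors lay below the p53-/- tumors, at -0.67 ± 0.18 (SE), unadjusted p = 0.00462, adjusted p = 0.206 with limma. Cd74, the invariant chain that guides MHC class II, was at -0.48 ± 0.21 (SE), unadjusted p = 0.0454, adjusted p = 0.472 in p53R172H/+ against p53-/- tumors by limma, without overlap. Cd14, a lipopolysaccharide co-receptor of macrophages, was at 0.56 ± 0.16 (SE), unadjusted p = 0.00677, adjusted p = 0.223 in both p53R172H groups against p53-/- by limma. Among macrophage genes, 13 of 14 tested were higher on average in that comparison, and of dendritic and Langerhans cell genes 7 of 8 were lower, where 43.5% of all genes were higher and 56.5% lower. The smallest adjusted p with limma was 0.223 among the first and 0.206 among the second.

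Cd163, a scavenger receptor of tissue macrophages chosen after its values were seen, gave 54.2, 17.2 and 64.5 in the p53-/- tumors, 20, 376 and 622 in the p53R172H/- tumors and 59.3, 14.8 and 119.8 in the p53R172H/+ tumors. Its signal in p53R172H/- tumors 2 and 3 was above that of every other tumor. Gzmk, a granzyme gene of memory T cells chosen in the same way, gave 157, 81.7 and 112 in the p53-/- tumors, 83, 166 and 137 in the p53R172H/- tumors and 132, 69.4 and 89.4 in the p53R172H/+ tumors. It was highest in p53R172H/- tumor 2 and p53-/- tumor 1, and its mean signal was under the background threshold.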
